A study of Rattus norvegicus with 30 samples.

Results

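Fads1, Fads2, Elovl5, Gpam, Dgat2, Pnpla3, Plin2 and Cd36 are 8 genes that link polyunsaturated fatty acid (PUFA) synthesis, triglyceride storage and fatty acid uptake in liver cells. They were taken by gene symbol in the platform's annotation, each as its brightest probe set with a single symbol, and all 8 were among the 14217 genes measured. Their signals come from 30 Affymetrix arrays of primary rat hepatocytes (male Sprague Dawley, purchased frozen, age not given), plated and dosed on day 3 of culture with beta-naphthoflavone (BNF), a flavone that activates AhR, the aryl hydrocarbon receptor. The 6 groups were vehicle (1% dimethyl sulfoxide), 1 µM BNF and 100 µM BNF, each harvested at 48 h and at 24 h after dosing, with 5 arrays per group from separate culture wells. The labels do not tie wells to animals, so p-values measure the spread between wells, and the number of arrays limits the precision. Signals are linear probe set intensities, tests were made with limma on log2 signal across all genes, and a gene is called at a Benjamini-Hochberg adjusted p under 0.05.

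Fads1 and Fads2 encode the delta-5 and delta-6 desaturases, which place double bonds in the chains that Elovl5 lengthens, so that dietary linoleic and alpha-linolenic acid become arachidonic acid and the long omega-3 fatty acids. Gpam adds the first acyl chain to glycerol 3-phosphate and Dgat2 adds the last one to make triglyceride, which is stored in droplets coated by Plin2 and carrying Pnpla3, a patatin-domain lipase family member. Cd36 is a membrane scavenger receptor that promotes uptake of long-chain fatty acids; in mouse liver it is a described target of the AhR, the pregnane X receptor and the liver X receptor.

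Against vehicle, 0 of the 8 genes were called higher by limma at either BNF dose; the nearest was Fads2 at 1 µM and 24 h, 2.56-fold higher with an adjusted p of 0.0582. Cd36 fell 4.77-fold at 48 h and 1.59-fold at 24 h under 100 µM BNF, Pnpla3 fell 2.46-fold at 100 µM and 48 h, and Fads1 fell 1.39-fold at 48 h and, close to the threshold, 1.32-fold at 24 h. Gpam, Dgat2, Plin2, Elovl5 and Fads2 were not called against vehicle at either dose or time. In vehicle wells Cd36, Fads1, Pnpla3 and Dgat2 were higher at 48 h than at 24 h, and at 100 µM BNF only Fads1 and Dgat2 of the 8 were called between the times.

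The promoter windows of the 3 genes that fell are shown because they are where AhR and lipid-regulator motifs would be looked for. They are RefSeq sequences of build GRCr8 (250 bases before to 50 after the annotated start, 5′ to 3′), all on the plus strand, with motif matches in capitals. The windows lie at chr4:18246332-18246631 for Cd36, chr7:117173278-117173577 for Pnpla3 and chr1:216252442-216252741 for Fads1.
Cd36: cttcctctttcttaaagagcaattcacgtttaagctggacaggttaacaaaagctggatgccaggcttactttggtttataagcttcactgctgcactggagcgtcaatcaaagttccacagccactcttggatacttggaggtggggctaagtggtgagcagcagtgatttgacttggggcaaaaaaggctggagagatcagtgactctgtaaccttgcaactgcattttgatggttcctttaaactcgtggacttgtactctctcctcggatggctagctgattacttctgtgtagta
Pnpla3: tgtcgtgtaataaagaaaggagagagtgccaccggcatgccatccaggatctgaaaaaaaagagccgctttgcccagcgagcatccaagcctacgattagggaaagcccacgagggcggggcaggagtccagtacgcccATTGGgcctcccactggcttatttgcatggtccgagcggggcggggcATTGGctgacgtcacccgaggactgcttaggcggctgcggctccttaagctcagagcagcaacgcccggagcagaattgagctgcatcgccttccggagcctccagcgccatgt
Fads1: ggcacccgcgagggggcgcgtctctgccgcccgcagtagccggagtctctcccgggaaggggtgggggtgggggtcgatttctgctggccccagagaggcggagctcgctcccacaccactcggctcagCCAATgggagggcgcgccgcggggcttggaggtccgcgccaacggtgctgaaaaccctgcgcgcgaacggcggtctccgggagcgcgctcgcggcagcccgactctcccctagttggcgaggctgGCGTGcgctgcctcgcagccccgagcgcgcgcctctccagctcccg
Positions are counted from the annotated start, with no base 0. The Fads1 window held the AhR core letters GCGTG at 5 and the letters CCAAT at -121. The Pnpla3 window held CCAAT on the minus strand, printed as ATTGG, at -111 and at -64. The Cd36 window held none of the 5 motifs searched on both strands. Of all 33469 windows in the reference table, 29.7% held GCGTG, 37.5% held CCAAT, 6.42% held the E-box CACGTG, 1.12% held the sterol response letters TCACNCCAC, and 0.0538% held a pair of AGGTCA half-sites 1 base apart, the form PPAR receptors bind. A match is a description of letters, and no match says only that these letters are not in this window. Of the 8 genes, 7 had a window in the table; Dgat2 did not, and Plin2 had 2.

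**Figure D1:**
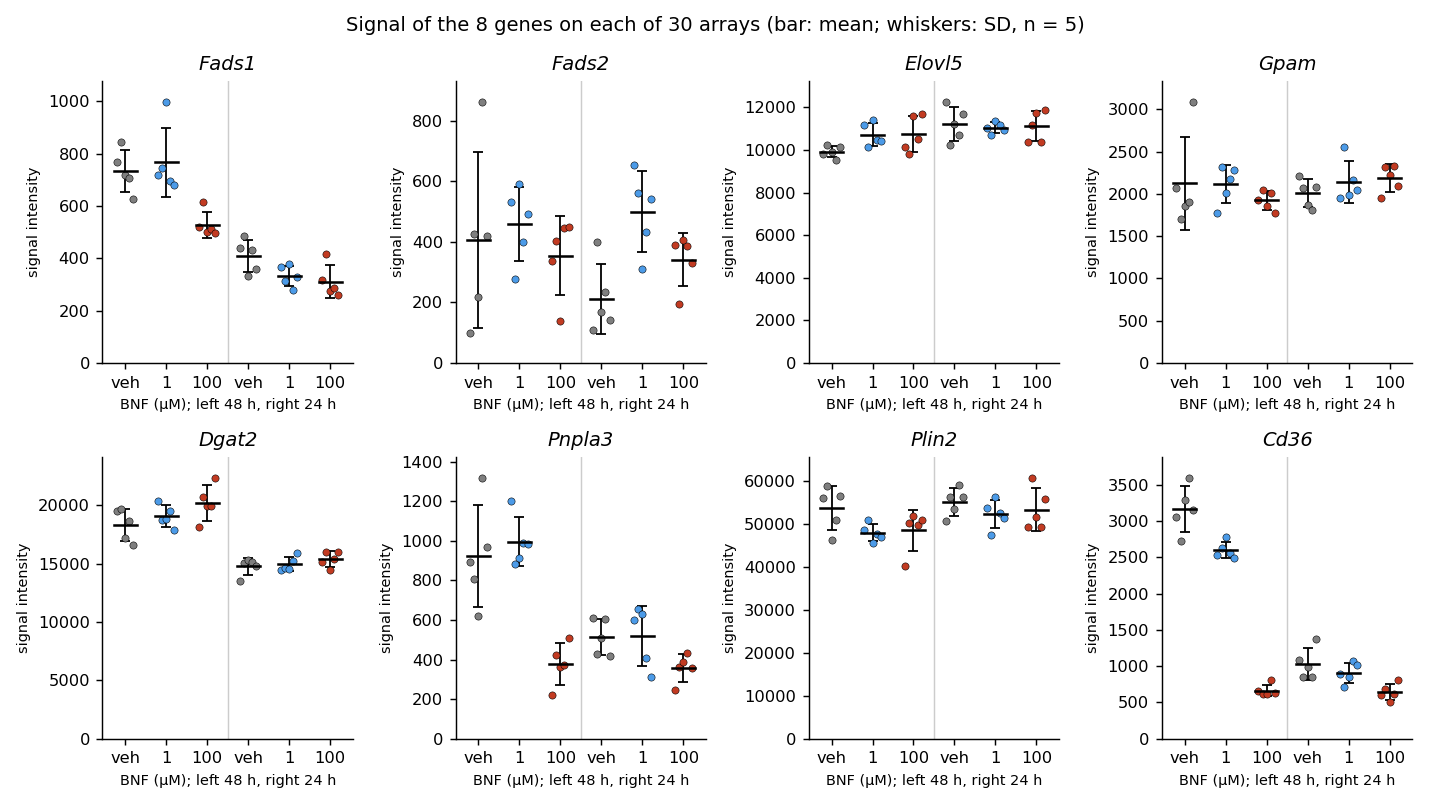
Signal intensity (linear y axis from 0) of each of the 8 genes on 30 arrays, with vehicle, 1 and 100 µM BNF at 48 h on the left of each panel and at 24 h on the right. Points are arrays, bars are means and whiskers are SD (n = 5). At 48 h the 100 µM wells lay below the vehicle wells without overlap for Cd36, Pnpla3 and Fads1.

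As a check of exposure, Cyp1a1, the classical AhR target, averaged 9525 ± 4287, 22607 ± 5173 and 50727 ± 6829 in vehicle, 1 µM and 100 µM wells at 48 h, and 11832 ± 3140, 44100 ± 3275 and 59383 ± 8936 at 24 h (SD, n = 5 each). Of 5 AhR targets listed, 5 were called higher at 100 µM and 3 at 1 µM, at each time. Tiparp, another of them, averaged 2840 ± 201.2 in 1 µM wells and 2818 ± 482.2 in vehicle wells at 48 h. All 11 measured hepatocyte markers of the 13 listed lay at or above the 95.2nd percentile of gene signals. Of the listed markers of macrophages and Kupffer cells, 13 were measured and 7 lay below the median gene. They ranged from Itgam at percentile 3.18 and Adgre1 at 9.78 to Lyz2 at 79.4 and Cd14 at 93.2. All 10 measured endothelial markers and 5 of 6 measured adipocyte markers lay below the median gene. So did 13 of 15 stellate and fibroblast markers and 4 of 5 cholangiocyte markers, with Epcam at percentile 91.8. The 3′ minus 5′ difference of the beta-actin controls, a sign of RNA integrity, was 1.32 to 1.44 log2 units in 100 µM wells and 1.21 to 1.46 in vehicle wells at 48 h. In RNA from whole wells, fewer cells of a type and less RNA per cell cannot be told apart.

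The first comparison asked what 100 µM BNF changed at 48 h. Of the 8 genes, 3 were called lower and 0 higher, where 17.4% of all genes were called and 8.62% were called lower. For these 3 the groups did not overlap, as they did not for 13.3% of all genes in either direction. The median log2 fold change of the 8 was -0.13, against 0.02 over all genes.

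Cd36 gave 653.1, 615.1, 621.4, 802.8 and 628.1 signal units in 100 µM wells, against 3056, 2728, 3294, 3599 and 3147 in vehicle wells at 48 h. Every 100 µM array lay far below every vehicle array, with no overlap. The log2 fold change was -2.25 (SE 0.13, adjusted p = 1.34e-14), a 4.77-fold lower signal and the 24th largest change in either direction among the 14217 genes. It was called under all 19 alternative settings, with log2 fold changes between -2.32 and -2.17. Cd36 has 1 single-symbol probe set, so the setting with another probe set kept the same one.

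Pnpla3 gave 218.4, 420.7, 362.6, 374.7 and 511.1 in 100 µM wells, against 894.9, 806.4, 620.2, 1320 and 966.7 in vehicle wells at 48 h. Every 100 µM array was lower than every vehicle array, though wells of both groups were widely spread. The log2 fold change was -1.30 (SE 0.22, adjusted p = 4.78e-05). Pnpla3 has 2 further, dimmer probe sets on the array, with mean signals of 206.8 and 127 where the one used here had 553.5. In a fit of all probe sets side by side their log2 fold changes were -0.49 (adjusted p = 0.487) and -0.78 (adjusted p = 0.429), so the call rests on the brightest probe set.

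Fads1 gave 518.4, 615.7, 499.2, 512.3 and 495.5 in 100 µM wells, against 769.8, 843.6, 718.8, 707.8 and 624.9 in vehicle wells at 48 h. The groups lay close together without overlapping. The log2 fold change was -0.47 (SE 0.15, adjusted p = 0.0217), and without the brightest vehicle array, number 2, it was -0.42 with an adjusted p of 0.0615. Fads2, the partner desaturase, averaged 354.8 ± 129.4 in 100 µM wells and 405.2 ± 290.6 in vehicle wells (SD, n = 5 each), and 4 of the 5 vehicle wells lay at or below the highest 100 µM well, with the fifth at 862.4. Its interval, from -0.81 to 0.88 log2 units, was the widest of the 8.

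The remaining genes were not called at 48 h. Dgat2 averaged 20232 ± 1533 in 100 µM wells and 18351 ± 1375 in vehicle wells (log2 fold change 0.14, adjusted p = 0.0624). It was called higher in 5 of 19 alternative settings, among them quantile normalization (adjusted p = 0.0211) and the fits without vehicle array 1 (0.0392), vehicle array 2 (0.0309) or 100 µM array 1 (0.0152). Elovl5 averaged 10756 ± 849 in 100 µM wells and 9932 ± 276.1 in vehicle wells (adjusted p = 0.153). Gpam averaged 1922 ± 112.9 and Plin2 48525 ± 4751 in 100 µM wells, against 2125 ± 553.9 and 53658 ± 5045 in vehicle wells, with adjusted p-values of 0.576 and 0.167. Plin2 was called lower, at a log2 fold change of -0.20, without vehicle array 3 (adjusted p = 0.0458). For the probe sets used, the intervals of Elovl5, Gpam, Dgat2 and Plin2 lay between -0.34 and 0.25 log2 units. Their dimmer probe sets gave 0.05 (SE 0.13) for Elovl5, 0.01 (SE 0.14) for Gpam, 0.12 (SE 0.06) for Dgat2 and -0.21 (SE 0.09) for Plin2, none called.

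Markers of other cells were read at the same wells. Summed over the 13 measured macrophage markers, the signal was 16273 to 17426 in 100 µM wells and 19495 to 21839 in vehicle wells at 48 h, with 2 of 13 called lower (Cd14 1.18-fold and Lyz2 1.54-fold). Those 2, with mean signals of 12262 and 3986 over all arrays, made up most of the sum. Summed hepatocyte markers were 397967 to 490353 in 100 µM wells and 501501 to 607674 in vehicle wells, with 6 of 11 called lower, by 1.17-fold (Hpx) to 2.11-fold (Cps1). Summed endothelial markers, 1342 to 2263 in 100 µM wells and 1288 to 2084 in vehicle wells, overlapped, with 1 of 10 called lower (Stab2, 3.04-fold, adjusted p = 0.0237). Summed adipocyte markers overlapped too (1401 to 2220 in 100 µM wells and 1107 to 1871 in vehicle wells), with 0 of 6 called by limma. Stellate and fibroblast markers had 2 of 15 called lower (Lox 2.47-fold and Rgs5 1.62-fold), with overlapping sums of 4448 to 5815 in 100 µM wells and 4799 to 6929 in vehicle wells. Cholangiocyte markers had 1 of 5 called lower (Epcam 1.28-fold), and their sums, 9074 to 9786 in 100 µM wells and 11426 to 13108 in vehicle wells, did not overlap. That sum was nearly all Epcam, with a mean signal of 10553 over all arrays, where Cftr, the next, had 143.3. The median log2 fold change of the 5 was 0.42. The part of these markers in the changes of Cd36, Pnpla3 and Fads1 was not tested.

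At 24 h, 2 of the 8 genes were called lower at 100 µM and 0 higher, where 21.1% of all genes were called and 10.4% were called lower. The groups did not overlap for 1 of the 8, and for 14.8% of all genes. The median log2 fold change of the 8 was -0.03, against 0.04 over all genes.

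Cd36 gave 609, 690, 507.3, 617 and 805.1 in 100 µM wells, against 1088, 849.1, 984.3, 849.9 and 1373 in vehicle wells at 24 h. All 5 treated wells were below all 5 vehicle wells, by a narrow margin at the nearest pair. Its log2 fold change was -0.67 (SE 0.13, adjusted p = 0.000159). Fads1 gave 316.7, 417.2, 275.7, 286 and 260.8 in 100 µM wells, against 438.4, 484.5, 333.6, 432.2 and 359.2 in vehicle wells. The groups overlapped, and the adjusted p of 0.046 (log2 fold change -0.40, SE 0.15) lay close to the threshold. The call was kept in 8 of 18 alternative settings, and it was lost, among others, when any of vehicle arrays 1, 2 and 4 or 100 µM arrays 1, 3, 4 and 5 was left out (adjusted p 0.0614 to 0.13).

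Pnpla3 averaged 357.1 ± 69.39 in 100 µM wells and 515.1 ± 91.97 in vehicle wells at 24 h (log2 fold change -0.53, SE 0.22, adjusted p = 0.0867), and was not called. Its other probe sets disagreed with each other, at 0.39 (adjusted p = 0.564) and -1.60 (adjusted p = 0.0282) log2 units. Dgat2 averaged 15414 ± 671.9 in 100 µM wells and 14762 ± 721.3 in vehicle wells (adjusted p = 0.471), while its dimmer probe set rose by 0.23 log2 units (adjusted p = 0.00352 among all probe sets). Fads2 averaged 341.3 ± 86.63 in 100 µM wells and 210.7 ± 115.8 in vehicle wells (log2 fold change 0.80, adjusted p = 0.192). Elovl5, Gpam and Plin2 had log2 fold changes of -0.01, 0.12 and -0.05, none called. In these wells 0 of 13 macrophage markers were lower and 1 was higher, and 2 of 11 hepatocyte markers were lower. Of the stellate and fibroblast markers 3 of 15 were lower (Lrat 4.22-fold, Lox 2.49-fold and Rgs5 1.7-fold), with sums of 6337 to 7944 in 100 µM wells and 7687 to 11071 in vehicle wells. The part of these markers in the Cd36 and Fads1 differences was not tested.

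**Figure D2:**
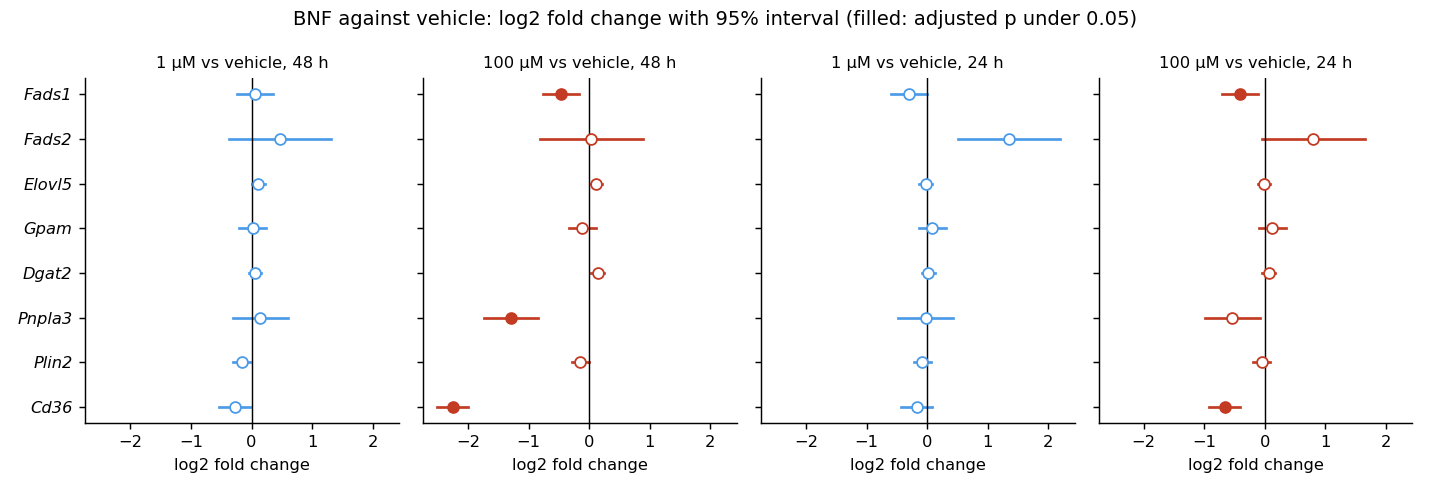
Log2 fold change (x axis) of each of the 8 genes in BNF wells over vehicle wells, for 1 and 100 µM at 48 h and then at 24 h. Points are estimates, lines are 95% intervals, and filled points have an adjusted p under 0.05. Cd36 at 100 µM and 48 h lies farthest from 0, at -2.25, and Fads2 has the widest intervals.

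At 1 µM, 0 of the 8 genes were called at 48 h by limma, where 0.809% of all genes were called, and 3 had an unadjusted p under 0.05. Cd36 gave 2527, 2634, 2778, 2563 and 2490 in 1 µM wells, against the 2728 to 3599 of vehicle wells at 48 h. Only the brightest 1 µM well reached the vehicle range, and the log2 fold change was -0.28 (interval -0.54 to -0.02, adjusted p = 0.398). Plin2 averaged 47870 ± 1980 in 1 µM wells and 53658 ± 5045 in vehicle wells (adjusted p = 0.367), and Elovl5 averaged 10729 ± 538.3 in 1 µM wells and 9932 ± 276.1 in vehicle wells (adjusted p = 0.427). Pnpla3, at 995.5 ± 124.3 in 1 µM wells and 921.6 ± 257.5 in vehicle wells, and Fads1, at 766.9 ± 131.4 and 733 ± 80.77 in the same groups, had intervals that spanned 0.

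At 24 h, 0 of the 8 were called at 1 µM by limma, where 4.30% of all genes were called, and 1 had an unadjusted p under 0.05. That gene was Fads2, with 655.4, 561.9, 310.1, 433.1 and 540.8 in 1 µM wells, against 107.7, 400.4, 170, 234.3 and 141.4 in vehicle wells. All but 1 of the 1 µM wells exceeded the brightest vehicle well. Its log2 fold change was 1.36 (SE 0.42, adjusted p = 0.0582), and it passed the threshold without vehicle array 2 (adjusted p = 0.0255) and in a fit of these 2 groups alone (0.0437). Within groups Fads2 had an SD of 0.70 log2 units, where the median gene had 0.22. Cd36 averaged 908.3 ± 142.1 in 1 µM wells and 1029 ± 217.1 in vehicle wells (adjusted p = 0.534), and Fads1 averaged 332.7 ± 39.72 in 1 µM wells and 409.6 ± 61.78 in vehicle wells (adjusted p = 0.29).

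The doses were then compared with each other. At 48 h, 100 µM wells were lower than 1 µM wells for 3 of the 8 genes and higher for 0, where 14.0% of all genes were called and 7.39% were called lower. The groups did not overlap for those 3, and for 10.9% of all genes. The log2 fold changes were -1.97 for Cd36 (SE 0.13, adjusted p = 5.31e-13), -1.44 for Pnpla3 (SE 0.22, adjusted p = 1.59e-05) and -0.53 for Fads1 (SE 0.15, adjusted p = 0.0119). The other Pnpla3 probe sets gave -0.36 (adjusted p = 0.667) and -0.95 (adjusted p = 0.32) among all probe sets, so this call too rests on the brightest one. For Fads1 the adjusted p was 0.0516 without 1 µM array 3, whose 997.6 was the highest Fads1 signal of all arrays. At 24 h only Cd36 of the 8 was called, at a log2 fold change of -0.49 (SE 0.13, adjusted p = 0.01), where 7.72% of all genes were called and 4.57% were called lower. Its wells overlapped (507.3 to 805.1 at 100 µM and 711.1 to 1072 at 1 µM), and the adjusted p was 0.069 in a fit of those 2 groups alone. These comparisons share the 100 µM arrays with those against vehicle. Centring each array on its median moved the median log2 fold change of all genes between the doses at 48 h to 0.09, where it was -0.02 as reported, and kept the calls of all 3 genes.

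Time in culture was examined in vehicle wells, 48 h against 24 h. Of the 8 genes, 4 were called higher and 1 lower, where 17.2% of all genes were called, 8.64% higher and 8.60% lower. For each of these 5 the wells of the 2 times were separate, as they were for 11.6% of all genes. The median log2 fold change of the 8 was 0.53, against 0.01 over all genes. Cd36, whose values are given above, averaged 3165 ± 319.5 at 48 h and 1029 ± 217.1 at 24 h, a log2 fold change of 1.64 (SE 0.13, adjusted p = 3.12e-11). Fads1 rose by 0.85 (SE 0.15, adjusted p = 6.54e-05), Pnpla3 by 0.81 (SE 0.22, adjusted p = 0.00858) and Dgat2 by 0.31 log2 units (SE 0.05, adjusted p = 4.86e-05). For the next brightest probe set of Pnpla3 the value was 0.80 (adjusted p = 0.163), and the third gave 0.165 (adjusted p = 0.908). The Pnpla3 call thus rests on the brightest one. For the next brightest probe set of Dgat2 the value was 0.55 (adjusted p = 1.6e-08). These values are from the limma fit of all probe sets.

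Elovl5 fell by 0.18 log2 units in vehicle wells, with 9801, 10233, 9905, 9554 and 10164 at 48 h, against 12261, 10240, 11241, 10716 and 11712 at 24 h. The groups all but touched, and the adjusted p of 0.0165 became 0.067 without 24 h array 1 and 0.167 when each array was centred on its median. Its other probe set ran the opposite way (0.12, adjusted p = 0.703 among all probe sets). Fads2, Gpam and Plin2 were not called, with log2 fold changes of 0.76, 0.05 and -0.04; Fads2 was called at 1.18 without 48 h array 1 (adjusted p = 0.0327). Over the same wells 6 of 13 macrophage markers were lower and 0 higher, and their summed signal was 19495 to 21839 at 48 h and 23509 to 27647 at 24 h. Of the hepatocyte markers 4 of 11 were lower. Summed adipocyte markers were 1107 to 1871 at 48 h and 2202 to 2683 at 24 h, with 1 of 6 called lower (Fabp4, 2.31-fold). Summed stellate and fibroblast markers were 4799 to 6929 at 48 h and 7687 to 11071 at 24 h, with 1 of 15 called lower (Lox, 4.06-fold). Endothelial markers had 1 of 10 higher (Stab2, 2.72-fold) and 1 lower (Lyve1, 1.95-fold), and 1 of 5 cholangiocyte markers was higher (Epcam, 1.1-fold). The part of these markers in the time differences was not tested.

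In 1 µM wells the same comparison gave 4 of the 8 genes higher at 48 h and 0 lower, where 13.5% of all genes were called and 6.82% were called higher: Cd36 (log2 fold change 1.53, adjusted p = 1.32e-10), Fads1 (1.20, adjusted p = 3.71e-07), Pnpla3 (0.98, adjusted p = 0.00181) and Dgat2 (0.35, adjusted p = 1.11e-05). For Pnpla3 the next brightest probe set ran the other way, at -0.17 (adjusted p = 0.872), and the third gave 1.21 (adjusted p = 0.167), both among all probe sets. In 100 µM wells 2 were higher and 0 lower, where 17.1% of all genes were called and 8.89% were called higher: Fads1 (0.78, adjusted p = 0.000187) and Dgat2 (0.39, adjusted p = 1.34e-06). Cd36 averaged 664.1 ± 78.86 at 48 h and 645.7 ± 110.3 at 24 h in 100 µM wells, a log2 fold change of 0.05 with an interval from -0.21 to 0.31. Pnpla3 averaged 377.5 ± 106.4 at 48 h and 357.1 ± 69.39 at 24 h there, with an interval from -0.40 to 0.50. Its other probe sets gave -0.08 (adjusted p = 0.946) and 0.99 (adjusted p = 0.269) among all probe sets. The Cd36 interval in 100 µM wells lies below the 1.53 and 1.64 seen at 1 µM and in vehicle. Plin2, uncalled in all 3 treatments, was lower at 48 h by its dimmer probe set in 1 µM wells (-0.44, adjusted p = 0.00127) and in 100 µM wells (-0.29, adjusted p = 0.0383), both among all probe sets.

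**Figure D3:**
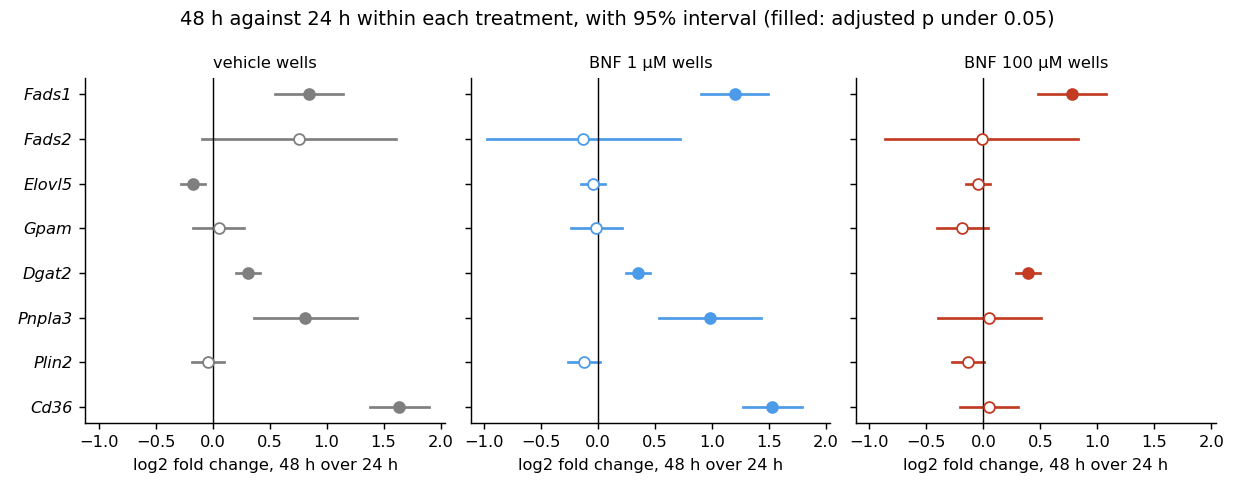
Log2 fold change (x axis) at 48 h over 24 h for each of the 8 genes in vehicle, 1 µM and 100 µM wells. Points are estimates, lines are 95% intervals, and filled points have an adjusted p under 0.05. Cd36 sits at 1.64, 1.53 and 0.05, while Fads1 and Dgat2 are filled in every panel.

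The difference between times was tested directly as the effect of each dose at 48 h minus its effect at 24 h. For 100 µM, 1 of the 8 genes was called, lower, where 0.788% of all genes were called and 0.408% were called lower. That gene was Cd36, at -1.59 log2 units (SE 0.18, interval -1.95 to -1.23, adjusted p = 2.11e-06). It was called under all 29 alternative settings with values between -1.70 and -1.50, though the setting with another probe set kept the same one. Pnpla3 had a difference of -0.76 (SE 0.31, interval -1.40 to -0.13, adjusted p = 0.303) and was not called. Its other probe sets differed in sign, at -0.88 (adjusted p = 0.602) and 0.83 (adjusted p = 0.771) among all probe sets. For Fads1 the difference was -0.07, with an interval from -0.49 to 0.35. For 1 µM, 0 of the 8 were called by limma and 0 had an unadjusted p under 0.05, where 0.0914% of all genes were called.

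The other genes of these pathways numbered 93 in 6 lists, 88 of them measured. At 100 µM, 31 were called lower and 7 higher at 48 h, and again 31 lower and 7 higher at 24 h, 43.2% of those measured at each time, beside the 17.4% and 21.1% of all genes. Their median log2 fold change was -0.09 at 48 h and -0.15 at 24 h. At 1 µM, 3 were lower and 1 higher at 48 h (4.55% of those measured, beside 0.809% of all genes), and 10 were lower and 2 higher at 24 h (13.6%, beside 4.30%). In vehicle wells, 48 h against 24 h, 46.6% of these 88 genes were called too (17 higher and 24 lower), beside 17.2% of all genes. A share above that of all genes was thus seen in wells without BNF as well, and its cause was not tested. The lists were chosen with earlier results of these data known. Counts below leave out the 8 genes themselves.

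Of the PUFA desaturation and elongation list, 7 others were measured. At 48 h 2 fell and 0 rose at 100 µM, and at 24 h 4 fell and 1 rose. Elovl2, which lengthens the longer PUFA, fell 1.65-fold at 48 h (adjusted p = 2.54e-05). At 24 h its signal was 2.03-fold lower (adjusted p = 6.85e-08). Fads1 changed 1.39-fold and 1.32-fold. Hsd17b12, the reductase step of elongation, fell 1.17-fold at 24 h.

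Of triglyceride synthesis, 18 others were measured, of which 5 fell and 2 rose at 48 h and 7 fell and 0 rose at 24 h. Gpd1, which makes glycerol 3-phosphate, fell 1.72-fold at 48 h (adjusted p = 6.82e-12), and its fall at 24 h was 1.75-fold (adjusted p = 4.72e-12). Lpin1, a phosphatidate phosphatase that makes diglyceride, fell 2.11-fold at 48 h and 2.30-fold at 24 h. Agpat3, an acyltransferase, fell 1.70-fold at 48 h, against 1.57-fold at 24 h. These lie on the steps between Gpam and Dgat2 or feed them. By the probe sets used, Gpam and Dgat2 themselves were not called against vehicle. The dimmer Dgat2 probe set rose at 100 µM and 24 h, as given above. Gpat4, of the same list, rose 1.24-fold at 100 µM and 48 h (adjusted p = 0.00109). Its next brightest probe set gave a log2 fold change of -0.035 and was not called (adjusted p = 0.87). At 1 µM Gpd1 fell 1.29-fold at 48 h and 1.58-fold at 24 h.

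Of the droplet coat and lipolysis list, 20 others were measured, of which 5 fell and 0 rose at 48 h and 7 fell and 1 rose at 24 h. G0s2, an inhibitor of the triglyceride lipase Pnpla2, fell 1.61-fold at 48 h (adjusted p = 3.09e-07). Mgll, which cleaves monoglyceride, fell 1.73-fold at 48 h, and 1.93-fold at the 24 h harvest. Cideb, a droplet and lipoprotein loading factor counted in this list and in that of lipoprotein assembly, fell 1.39-fold and 1.4-fold at those times. Pnpla2 itself fell 1.43-fold at 24 h.

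Of fatty acid uptake and binding, 17 others were measured, of which 6 fell and 3 rose at 48 h and 4 fell and 3 rose at 24 h. Fabp1, the liver fatty acid binding protein, fell 2.97-fold at 48 h and 1.70-fold at 24 h. Slc27a2, a fatty acid transport protein with acyl-CoA synthetase activity, fell 1.82-fold and 1.90-fold. Fabp7 rose 1.64-fold at 48 h, and Fabp5 and Slc27a4 each rose 1.44-fold at 24 h. Cd36 had the lowest log2 fold change of the list at 48 h.

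All 10 listed genes of very low density lipoprotein (VLDL) assembly were measured, of which 5 fell and 2 rose at 48 h and 5 fell and 1 rose at 24 h. Mttp, which loads lipid onto apolipoprotein B, fell 2.10-fold at 48 h and 2.24-fold at 24 h. Apob itself fell 1.41-fold and 1.58-fold. The next brightest Apob probe set had values of -0.15 at 48 h (adjusted p = 0.563) and of -0.13 for the 24 h wells (adjusted p = 0.603), so the Apob call rests on the brightest one. Among 17 regulators, 9 fell and 0 rose at 48 h, and 5 fell and 1 rose at 24 h. Srebf1, a driver of lipogenic and desaturase genes, fell 1.69-fold at 48 h and 2.35-fold at 24 h. The xenobiotic receptor Nr1i2 (PXR) fell 1.55-fold at 48 h and 1.36-fold at 24 h. Nr1i3 (CAR) fell 2.28-fold at 48 h.

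**Figure D4:**
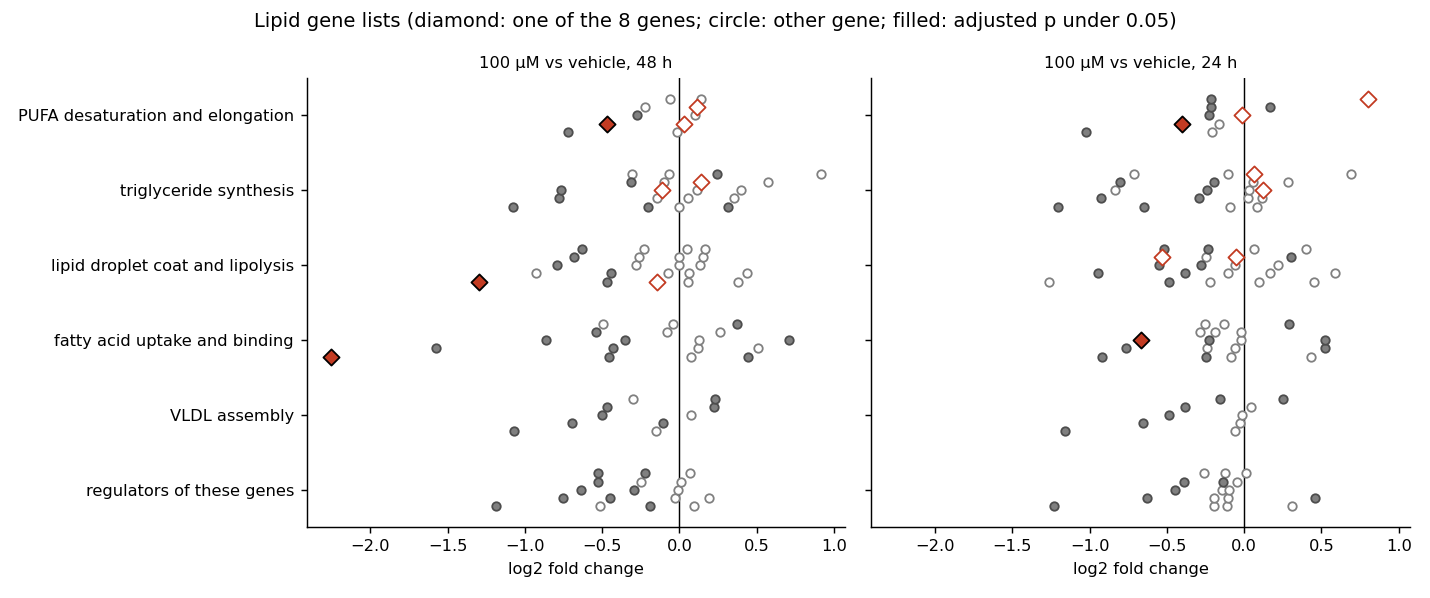
Log2 fold change (x axis) in 100 µM over vehicle wells at 48 h (left) and at 24 h (right) for 6 lists of lipid genes. Diamonds are the 8 genes, circles are other genes, and filled marks have an adjusted p under 0.05. More filled marks lie left of 0 than right of it, with Cd36 at -2.25 at 48 h farthest out.

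The genes whose log2 signal ran most like each of the 8 over the 30 arrays were taken from the brighter portion of the array, as a description only, since all arrays share the group structure and the scaling. For Cd36 they were G0s2 (Pearson r = 0.91) and Plscr1 (0.91); after the group means were removed these were 0.31 and 0.19, so the likeness lay between groups. For Pnpla3 they were Cyp4a1 (0.83) and Cd36 (0.82), with 0.16 and -0.24 within groups. For Fads1 they were C10h17orf58 (0.89) and Manba (0.88), with 0.11 and -0.06 within groups. Plin2 was most like the ribosomal protein gene Rpl11 (0.95) and Mgst1 (0.95). Within groups these were 0.96 and 0.94, so its well-to-well variation went with theirs. The Plin2 probe set used lay at the 99.6th percentile of gene signals, with a mean of 51589, where its dimmer probe set had 7781. The part of this brightness in the Plin2 values was not tested. Dgat2 was most like Sesn2 and Grn (0.94 each), with 0.7 and 0.52 within groups. Gpam was most like Adm and Ddit4 (0.69 each), with 0.83 and 0.7 within groups. Elovl5 was most like Pttg1ip (0.75) and Ascc2 (0.73), with 0.68 and 0.6 within groups. Fads2 was most like Ifnar2 (0.64) and Glis2 (0.63), with 0.48 and 0.55 within groups. A likeness kept within groups was thus not particular to Plin2.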

How the data were processed

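The authors deposited a linear intensity for every probe set. The submitters' processing notes name MAS5 and give no version. All 30 arrays had a trimmed mean of 1501 (2% trimmed at each end), so the arrays were scaled alike before deposit and a shift common to all genes is lost. Of 31099 probe sets, 57 controls, 436 with several symbols and 9780 with none were left out; 20826 carried 1 symbol, 20758 of them matched by gene number to the GRCr8 table. Each of 14217 genes was represented by the brightest of its probe sets (mean of log2 values); 4525 genes had several. The 8 genes and the lists were chosen with earlier results of these data known.

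Analysis used R 4.3.3 and limma 3.58.1 (lmFit, eBayes with trend) on log2 intensities, with 1 mean per group, 24 residual degrees of freedom, and Benjamini-Hochberg adjustment over all genes at 0.05. Data were simulated for 1 µM against vehicle at 24 h (14217 genes, 3 rounds). The test called 76 of 150 genes changed by 0.5 log2 units and 105 of 150 changed by 1. It called 124 of 150 changed by 1.5, 133 of 150 changed by 2, and 21 of 42051 unchanged genes. The simulated noise was normal and independent between genes, and fewer genes were changed per round than were called in this comparison. These shares therefore need not hold in the data. The comparisons of 48 h with 24 h within each BNF dose, the fit of all probe sets and a block for runs of sample titles were added after values were seen. Named genes were the 8, up to 4 called genes with the smallest adjusted p per list and comparison with vehicle, the 2 genes most like each of the 8, and markers. Replicate numbers follow sample order and only name an array. No pair of arrays was identical (0), and 0 columns belonged to other samples. Alternatives were quantile normalization, centring arrays on their median, 50 added before log2, no trend, no dim genes, another probe set, only the groups compared, and leaving out each array. Genes with 1 probe set, among them Cd36, Fads1 and Fads2, kept it in the setting with another probe set.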

Additional observations from a re-analysis of the deposited data

Results flagged for a closer look

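Of 48 groups of 5 arrays (8 genes in 6 groups), 6 held an array set apart from the other 4 by Dixon's test, where chance sets apart about 1 in 20 groups. Fads1 was high at 997.6 in 1 µM array 3 at 48 h (others 678.5 to 745.4) and at 615.7 in 100 µM array 2 at 48 h (others 495.5 to 518.4). Cd36 was high at 802.8 in 100 µM array 4 at 48 h (others 615.1 to 653.1), still far below the lowest vehicle array at 2728. Plin2 was low at 40141 in 100 µM array 1 at 48 h (others 49685 to 51740), and Dgat2 was low at 13511 in vehicle array 1 at 24 h (others 14826 to 15313). Gpam was high at 3088 in vehicle array 5 at 48 h (others 1704 to 2064). The same array had the highest vehicle signal at 48 h of Adm, 13586 (others 6191 to 7233), and of Ddit4, 11876 (others 6699 to 8367), genes named here for their likeness to Gpam. That likeness was computed over arrays that include this one, so the 3 high signals are not separate observations.

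The 100 µM effect on Cd36 differed between the times, by -1.589 log2 units at 48 h minus 24 h (limma interaction, adjusted p = 2.11e-06).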

How the results depend on the processing

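Over all alternatives 1799 values of the 8 genes were recomputed; 1767 kept their side of the threshold and, where called, their direction, 18 lost a call, 12 gained one and 2 called values reversed, both with the next brightest probe set: Elovl5 in vehicle wells at 48 h against 24 h (0.115) and Pnpla3 in 1 µM wells at 48 h against 24 h (-0.174). Of other genes, that probe set reversed Gpat4 at 100 µM and 48 h (-0.035) and, at 24 h, Hacd3 (0.337), Pdia3 (-0.334) and Hnf4a (0.016) at 100 µM and Hnf4a at 1 µM (0.134). None of the reversed values was itself called by limma, with adjusted p from 0.0584 (Hacd3) to 0.945 (Hnf4a at 100 µM). The cause of the reversals was not tested. Among uncalled values 91 changed sign.

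Leaving out genes below the median signal removes Fads1, Fads2 and Pnpla3, so fewer of the 8 were called: 1 at 100 µM against vehicle at 24 h (2 in the fit reported), 1 against 1 µM at 48 h (3), and 3 in vehicle (5), 2 in 1 µM (4) and 1 in 100 µM wells (2) at 48 h against 24 h. With 50 added before log2, 1 was called at 100 µM and 24 h. With only the groups compared, 1 was called at that dose and time, 1 at 1 µM and 24 h (0), and 0 at 100 against 1 µM at 24 h (1). With the next brightest probe set, 3 were called in vehicle wells between times.

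Centring arrays on their median cut the genes called to 395 (from 612 of all genes) and 66 (115) at 1 µM at 24 and 48 h, 612 (1097) at 100 against 1 µM at 24 h, 1633 (2450) and 1238 (1926) between times in vehicle and 1 µM wells, and 47 (112) and 0 (13) for the time differences of the 100 and 1 µM effects. It moved the share called higher to 12.9% (44.3%) and 12.1% (35.7%) at 1 µM at 24 and 48 h, 30.4% (50.8%) at 100 µM and 24 h, 76.2% (47.1%) at 100 against 1 µM at 48 h, 72.5% (51.8%) between times in 100 µM wells and 61.7% (48.2%) for the 100 µM time difference. That difference gave 174 genes without dim genes. The 1 µM time difference gave 23 with quantile normalization, 4 without the trend, 1 with the next brightest probe set and 5 with only the groups compared, a setting that gave 30 at 1 µM and 48 h.

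Leaving out each array in turn gave ranges of genes called of 406 to 689 and 46 to 153 (1 µM at 24 and 48 h), 2626 to 2931 and 2058 to 2501 (100 µM at 24 and 48 h), 781 to 1112 and 1611 to 1919 (100 against 1 µM at 24 and 48 h), 1909 to 2529, 1643 to 1942 and 2057 to 2310 (48 h against 24 h in vehicle, 1 µM and 100 µM), and 2 to 22 and 89 to 154 (time difference at 1 and 100 µM). Of the 8, the ranges were 0 to 1 and 0 to 0 at 1 µM, 1 to 2 and 3 to 4 at 100 µM, 1 to 1 and 2 to 3 between doses, 4 to 6, 4 to 4 and 2 to 2 between times, and 0 to 0 and 1 to 1 for the time difference. At 1 µM and 24 h the count fell to 406 without 1 µM array 3. At 1 µM and 48 h it fell to between 46 and 76 without vehicle array 1, 3, 4 or 5 or 1 µM array 1, 3, 4 or 5. The 1 µM time difference, 13 genes, moved by over 1.5 times without most single arrays.

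The labels give no replicate numbers, but serial numbers in the sample titles fall into 5 runs of 6 with 1 array of each group. A replicate block for these runs, chosen after seeing the data, left the number of the 8 called the same in every comparison (3 and 2 at 100 µM against vehicle at 48 and 24 h) and every count of genes called within 1.5 times. Deviations of arrays in the same run correlated at -0.04 to 0.11 (median 0.01, 75 pairs). Those of arrays in other runs and groups correlated at -0.1 to 0.11 (median 0, 300 pairs). Of the 30 arrays, 9 correlated best with their own run. The fit reported did not take the runs as pairs. Within groups the SD was 0.70 log2 units for Fads2, 0.36 for Pnpla3 and 0.20 for Fads1, where the median gene had 0.22. MAS5 detection calls were not used here, and wells are not tied to animals.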

Other observations

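A probe set annotated to both Cd36l1 and Cd36 was left out of the gene tests because it carries 2 symbols. In a fit of all probe sets it gave 2924 ± 363.5 in 100 µM wells and 9048 ± 913.8 in vehicle wells at 48 h (SD, n = 5 each), 3.10-fold lower (adjusted p = 3.28e-14, limma). At 24 h it was 1.68-fold lower at 100 µM (2311 ± 303.1, against 3878 ± 541.4 in vehicle wells; adjusted p = 5.57e-07). The 100 µM effect differed between the times by -0.89 log2 units (adjusted p = 0.000342). Unlike the single-symbol Cd36 probe set, at 0.05, it was called higher at 48 h than at 24 h in 100 µM wells, by 0.34 log2 units (adjusted p = 0.0142); the difference between these probe sets was not tested.

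Cyp4a1, a fatty acid omega-hydroxylase and the gene most like Pnpla3, gave 1508, 1855, 1597, 1582 and 1735 in 100 µM wells, against 5937, 5241, 6117, 6971 and 6265 in vehicle wells at 48 h, with no overlap. At 24 h it gave 1628, 1508, 1653, 1268 and 1292 in 100 µM wells, against 3574, 3916, 4162, 3421 and 4607 in vehicle wells, again with no overlap. The groups did not overlap for 13.3% of all genes at 48 h and 14.8% at 24 h. Cyp4a1 was picked for its likeness to Pnpla3 over these same arrays, so a fall shared with Pnpla3 is not a separate result.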
